A study of Mus musculus with 40 samples.

Results

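The 10 genes Pdgfra, Pi16, Dpp4, Cd34, Ly6a, Dcn, Lum, Vcan, Fn1 and Postn, which mark the progenitors and fibroblasts of adipose tissue, were followed in mouse brown fat. They were chosen by symbol, and all 10 were found among the 52636 Ensembl genes of the count table and among the 17079 genes with enough counts to test. Brown adipose tissue was taken from 40 male C57BL/6 mice, 5 in each of 8 groups, and each mouse gave 1 bulk RNA library. The age is given as 10 to 12 weeks in the series' own text and as 10 to 14 weeks in the sample text. Control mice had received 1 intraperitoneal dose of an isotype antibody against ragweed, 40 mg/kg, and were collected after 15 h, 5 d or 7 d. Jag antibody mice had received 2 antibodies that block the Notch ligands Jag1 and Jag2 (aJ1aJ2), each at 20 mg/kg, and were collected at the same 3 times. The last 2 groups had received either the ragweed antibody or the Jag antibodies and, in addition, daily thyroid hormone starting on day 2, with doses per gram of mouse of 1 ug for thyroxine (T4) and 0.05 ug for triiodothyronine (T3), until collection at 7 d. The hormone-free groups have no stated vehicle injection. The title of the series places the work in Notch signalling in the thyroid, so the comparisons ask what ligand blockade does in brown fat over time and what added hormone does to it.

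Adipose tissue holds a stroma of fibroblast-like cells around its fat cells and vessels, and part of this stroma can divide and mature into new adipocytes. Pdgfra, the alpha receptor for platelet-derived growth factor, is the general marker of these progenitors. Early progenitors lie in the sheath of connective tissue around vessels and carry Pi16, a secreted peptidase inhibitor family protein, and Dpp4, a surface dipeptidase. Cd34 and Ly6a (Sca-1) are surface proteins used to sort progenitors, though endothelial and blood cells also carry them. Dcn (decorin) and Lum (lumican) are small leucine-rich proteoglycans that bind collagen fibrils. Vcan (versican) is a large proteoglycan that binds hyaluronan and is made by monocytes too. Fn1 (fibronectin) is a fibril-forming glycoprotein that macrophages also make, and Postn (periostin) is a matricellular protein that binds collagens and integrins.

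Libraries held 12217623 to 36511893 counts. Levels are given as CPM, in which TMM scaling brings every library to the same effective total. Differences are log2 fold changes with their standard error (SE) from edgeR's quasi-likelihood test, and a gene is called when its Benjamini-Hochberg adjusted p over the 17079 genes is under 0.05. Markers of brown adipocytes were present throughout, with none of the 8 at 0 in any group and a summed level of 2641 to 42791 CPM per mouse. Of 10 general fibroblast markers, Tcf21 was at 0 in all 40 mice and the other 9 were tested. Some libraries stood apart. Skeletal muscle markers summed to 1018 to 175926 CPM in control mice at 5 d and to 0.878 to 43.9 CPM in Jag antibody mice at 5 d. Monocyte markers summed to 1115 and 689 CPM in control mice 2 and 3 at 15 h, against 47.9 to 152 CPM in the other 3 control mice of that time. The slope of log2 CPM on gene length, a measure of how long and short genes were recovered, ran from -0.54 to 0.25 over the libraries and was lowest in control mouse 4 at 7 d. In bulk tissue, fewer cells of a type and less RNA per cell cannot be told apart.

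The levels of the members spanned a wide range once divided by exonic length. Ly6a was the highest per length, at a mean of 115 CPM per kb over the 40 mice, followed by Dcn at 58.6 CPM per kb. Lum, Postn and Cd34 followed at 20.8, 14.8 and 11.4 CPM per kb, an order that depends on the transcript chosen, since with the longest transcript Cd34 came before Postn and Lum. Fn1 stood at 5.96, Pdgfra at 4.17 and Pi16 at 2.72 CPM per kb. The lowest were Vcan and Dpp4, at 1.65 and 0.758 CPM per kb. The abundant members were thus a surface protein and the fibril-binding proteoglycans, and the marker of early progenitors with the lowest level, Dpp4, rested on as few as 2 counts in a library (control mouse 4 at 7 d).

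In the GENCODE M21 annotation of GRCm38, all 10 are protein-coding genes. Dcn (chr10:97479609-97518143) and Lum (chr10:97565128-97572703) are neighbours on the plus strand of chromosome 10. Pdgfra lies at chr5:75152292-75198215, Cd34 at chr1:194938819-194961279, Pi16 at chr17:29317680-29330593 and Postn at chr3:54361109-54391037, all on the plus strand. On the minus strand are Dpp4 (chr2:62330073-62412231), Ly6a (chr15:74994877-74998031), Vcan (chr13:89655312-89742509) and Fn1 (chr1:71585520-71653200). Exons of Pdgfra, Pi16, Dpp4, Cd34 and Fn1 overlap exons of genes annotated on the other strand by 148 to 456 bases. Whether the counting used the strand is not given in the sources used here, so reads in these stretches cannot be assigned with certainty. Ly6a overlaps no annotated gene but belongs to a family of related genes. How reads that match several genes were counted is not given in the sources used here.

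**Figure D1:**
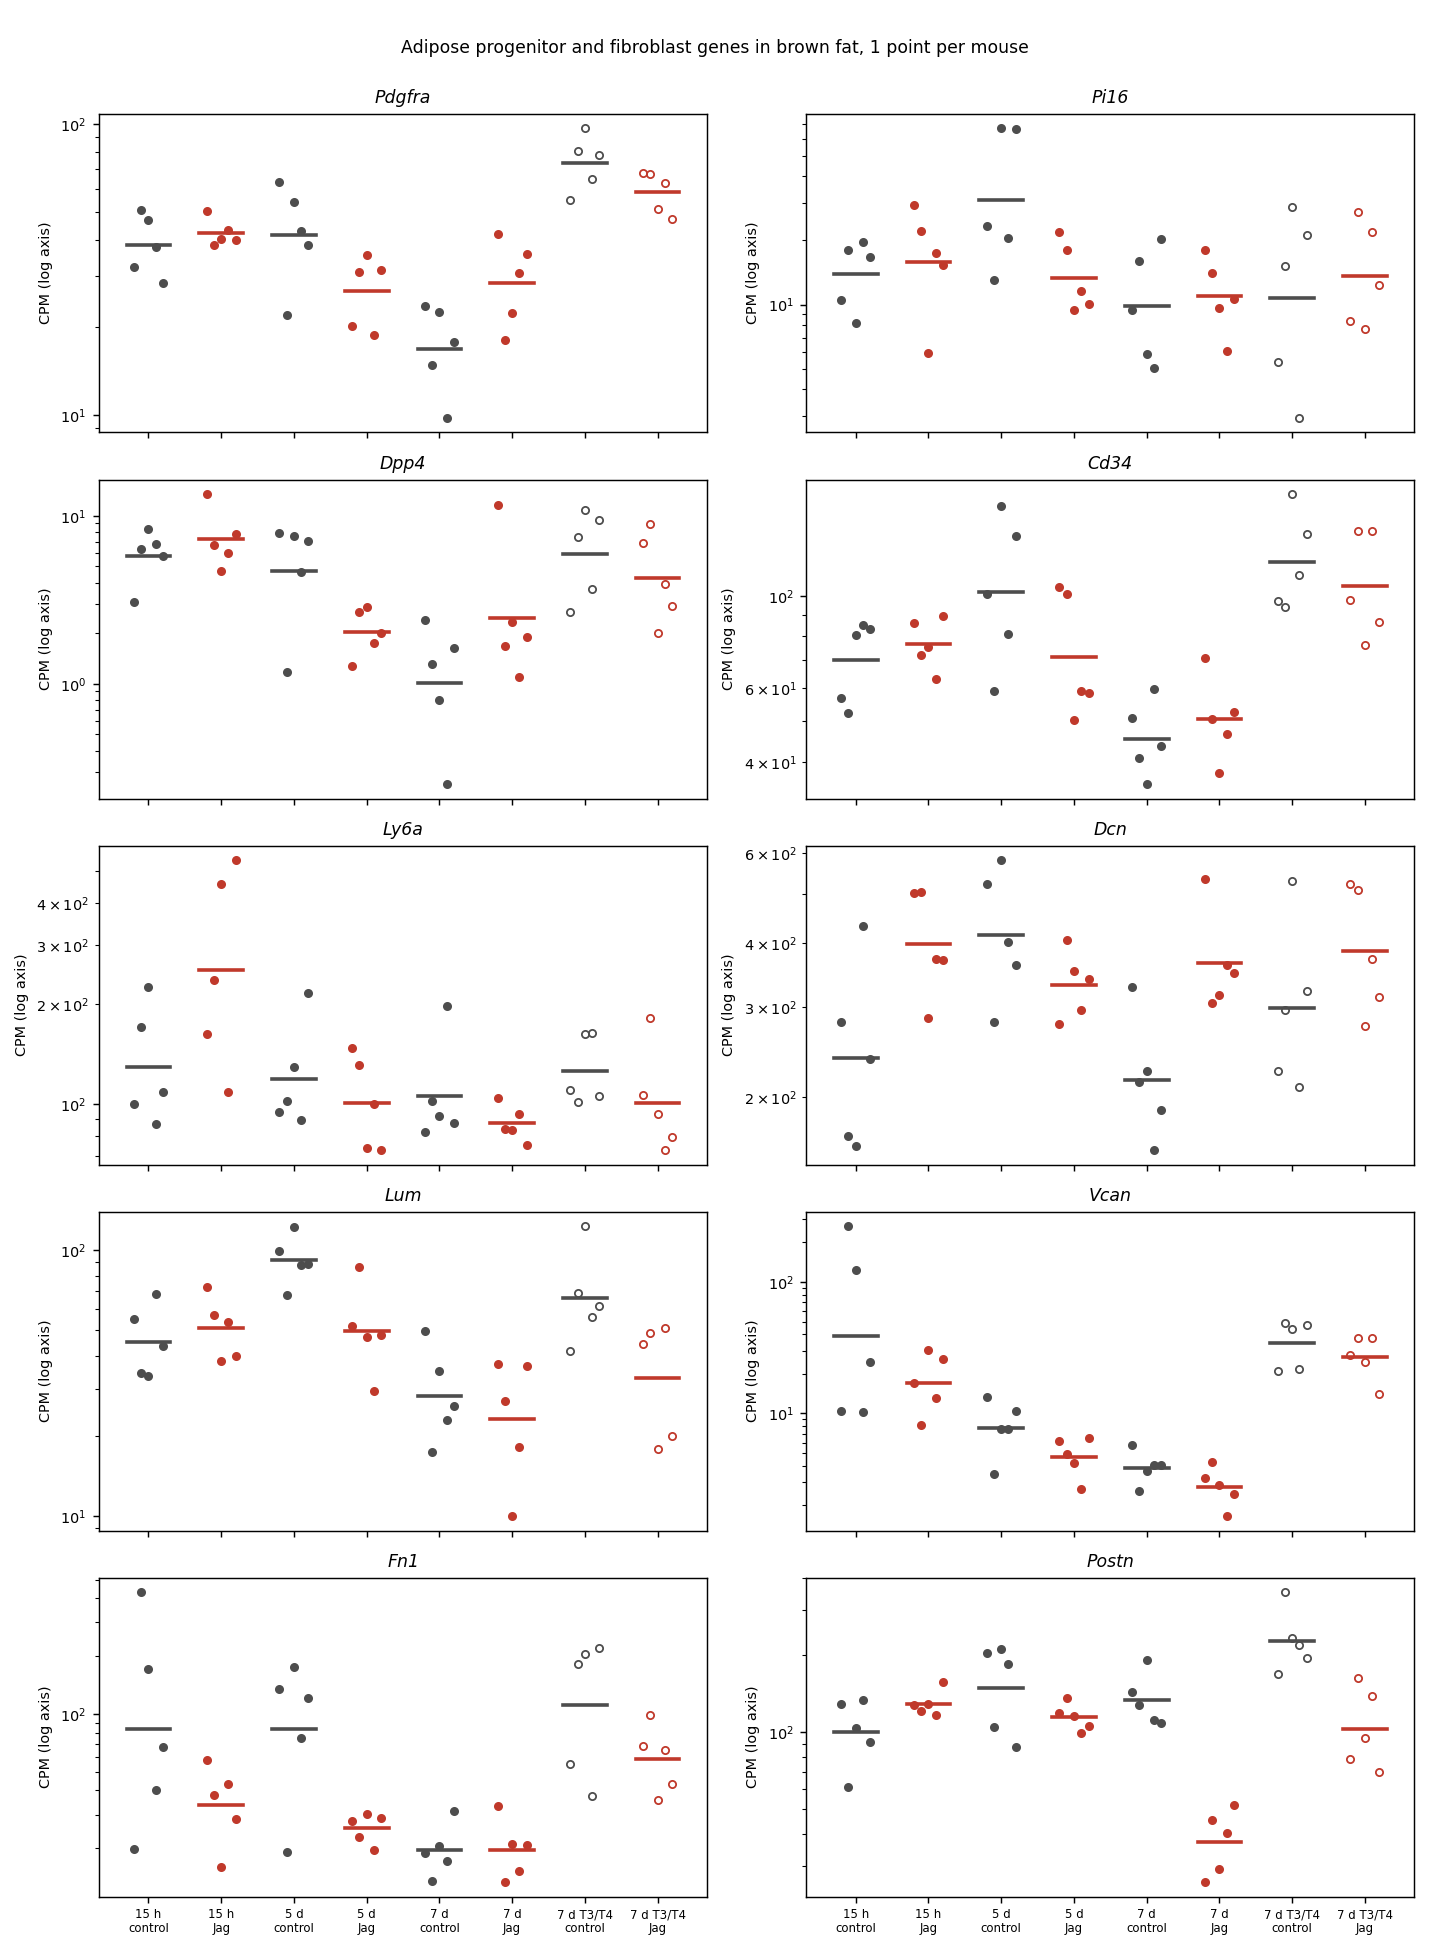
TMM-scaled CPM (vertical, log axis) of each member in each of the 40 mice (points), by group (horizontal), with a bar at the geometric mean of the 5 mice. Grey is control antibody, red is Jag antibody, and open points are mice given T3 and T4. Vcan is 1.66 to 5.76 CPM in the 10 hormone-free mice at 7 d and 13.9 to 48.9 CPM in the 10 hormone mice, and Postn is lowest in Jag antibody mice at 7 d.

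The plot of CPM by mouse shows how the groups were ordered. Control mice given hormone had the highest mean log2 CPM of Pdgfra (6.20 ± 0.32, SD, n = 5), Cd34 (6.91 ± 0.38), Fn1 (6.80 ± 1.19) and Postn (7.83 ± 0.40). Control mice at 5 d were highest for Pi16 (4.96 ± 1.06), Dcn (8.70 ± 0.42) and Lum (6.51 ± 0.30). Control mice at 7 d without hormone were the lowest of the 8 groups for Pdgfra (4.09 ± 0.52), Pi16, Dpp4 (0.19 ± 1.09), Cd34 (5.50 ± 0.29), Dcn and Fn1. Jag antibody mice at 7 d were lowest for Ly6a, Lum, Vcan and Postn (5.22 ± 0.42). Jag antibody mice at 15 h were highest for Dpp4 (2.87 ± 0.56) and Ly6a (7.98 ± 0.98), and control mice at 15 h for Vcan (5.28 ± 2.12). Most neighbours in these orders did not differ beyond their spread: of 70 gaps between neighbouring groups, 9 were larger than the larger SD of the pair. Of these, 3 were Pdgfra's and 3 Postn's, and none belonged to Pi16, Dpp4, Ly6a, Dcn or Lum.

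Thyroid hormone was the treatment with the most changes. In control antibody mice at 7 d, 7 of the 10 members rose with hormone and none fell, where 43.2% of all tested genes were called and 20.3% were called higher. The members that rose were Pdgfra, Dpp4, Cd34, Lum, Vcan, Fn1 and Postn, and Pi16, Ly6a and Dcn did not pass the test. In Jag antibody mice 4 of the 10 rose (Pdgfra, Cd34, Vcan and Postn) and none fell, where 9.50% of genes were called and 4.29% were called higher. The median log2 fold change of the members was 1.32 in control and 0.74 in Jag antibody mice, and that of all tested genes was 0.04 and -0.04. All 10 members had a positive estimate under both antibodies.

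Pdgfra, the progenitor receptor, stood at 23.6, 14.8, 22.5, 9.75 and 17.8 CPM in control mice 1 to 5 without hormone. With hormone it stood at 54.6, 80.5, 96.9, 64.5 and 78.3 CPM. Every hormone mouse was above every hormone-free mouse, a 4.22-fold difference (log2 2.08, SE 0.25, adjusted p = 9.41e-07). Under the Jag antibodies, mice 6 to 10 had 41.8, 18.1, 22.5, 30.8 and 35.8 CPM without hormone and 67.9, 67.3, 51.0, 62.7 and 47.1 CPM with it. These groups did not overlap either, and the difference was 1.99-fold (log2 0.99, SE 0.25, adjusted p = 0.00907). The hormone-free Jag antibody mice reached higher than the hormone-free control mice, and the antibody by hormone interaction of Pdgfra, -1.09 on the log2 scale (SE 0.35), had an adjusted p of 0.374.

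Dpp4 and Cd34 are the other surface proteins that rose in control mice. Cd34 was 50.9, 40.7, 35.4, 59.8 and 43.5 CPM without hormone and 96.9, 93.8, 175, 112 and 141 CPM with it in control mice, with no overlap (log2 1.43, SE 0.25, adjusted p = 5.94e-05). Under the Jag antibodies it was 71.0, 50.7, 37.7, 46.5 and 52.8 CPM without and 97.9, 143, 76.0, 143 and 86.4 CPM with hormone (log2 1.08, SE 0.25, adjusted p = 0.00504). Cd34 thus rose 2.69-fold and 2.11-fold, and the lowest hormone mouse exceeded the highest hormone-free mouse under each antibody. Dpp4 in control mice was 2.40, 1.32, 0.798, 0.253 and 1.63 CPM without and 2.67, 7.49, 10.8, 3.69 and 9.44 CPM with hormone (log2 2.36, SE 0.57, adjusted p = 0.0012). Dpp4 in Jag antibody mice did not pass the test (log2 0.40, SE 0.53, adjusted p = 0.655), and 1 hormone-free mouse, at 11.6 CPM, was above all 5 hormone mice. Pi16, which shares the early progenitor niche with Dpp4, spread from 2.94 to 28.8 CPM among control mice with hormone and had estimates of 0.37 and 0.41 (adjusted p 0.582 and 0.636). Ly6a had estimates of 0.20 and 0.28 (adjusted p 0.663 and 0.629).

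Among the proteoglycans, Vcan had the largest difference of all members under both antibodies. It was 5.76, 2.55, 3.65, 4.05 and 4.02 CPM in control mice without hormone and 21.2, 48.9, 44.2, 21.7 and 47.2 CPM with hormone. Under the Jag antibodies it was 3.23, 4.29, 2.87, 1.66 and 2.42 CPM without and 28.0, 37.3, 24.7, 37.3 and 13.9 CPM with hormone. Every hormone mouse was above every hormone-free mouse, and the differences were 9.10-fold (log2 3.19, SE 0.61, adjusted p = 0.000138) and 9.72-fold (log2 3.28, SE 0.61, adjusted p = 0.000655). With limma on log2(FPKM + 1), a scale that compresses low values, the 2 differences of Vcan were 0.43 (adjusted p = 0.0599) and 0.35 (adjusted p = 0.253), and neither was called. Lum, the collagen-binding lumican, rose in control mice from 49.4, 17.4, 34.9, 22.9 and 25.8 CPM to 41.6, 69.1, 123, 55.9 and 61.6 CPM (log2 1.22, SE 0.34, adjusted p = 0.00464). The lowest hormone mouse lay inside the hormone-free range. Lum did not pass in Jag antibody mice (log2 0.49, SE 0.34, adjusted p = 0.357). Dcn, its neighbour on the chromosome, was at 0.51 (adjusted p = 0.12) and 0.09 (adjusted p = 0.844).

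The glycoproteins differed in where they passed. Fn1 in control mice was 19.0, 13.5, 20.7, 17.2 and 31.1 CPM without and 55.2, 183, 204, 37.7 and 219 CPM with hormone, a 6.87-fold difference (log2 2.78, SE 0.59, adjusted p = 0.000417). Among the hormone mice 3 (mice 2, 3 and 5) were far above the other 2. Pdgfra, Dpp4 and Vcan were also highest in these 3 mice. Skeletal muscle markers summed to 583, 13074 and 6625 CPM in them, against 1.81 and 3.41 CPM in mice 1 and 4. With the muscle score as a covariate Fn1 remained called, and why these mice differed was not tested. Fn1 in Jag antibody mice went from 13.4 to 33.2 CPM without hormone to 35.6 to 98.6 CPM with it, and although these ranges did not overlap the adjusted p was 0.0694 (log2 1.58, SE 0.57). Postn rose in Jag antibody mice from 26.0, 45.3, 29.1, 40.4 and 52.1 CPM to 78.8, 163, 94.7, 139 and 70.3 CPM, with no overlap (log2 1.50, SE 0.26, adjusted p = 0.000267). In control mice it was 144, 128, 191, 111 and 109 CPM without and 169, 354, 234, 220 and 195 CPM with hormone, and the ranges overlapped (log2 0.78, SE 0.25, adjusted p = 0.0128). With length and GC offsets per library this last difference was 0.37 (adjusted p = 0.289), and without hormone mouse 2 of the control antibody it was 0.58 and no longer called.

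**Figure D2:**
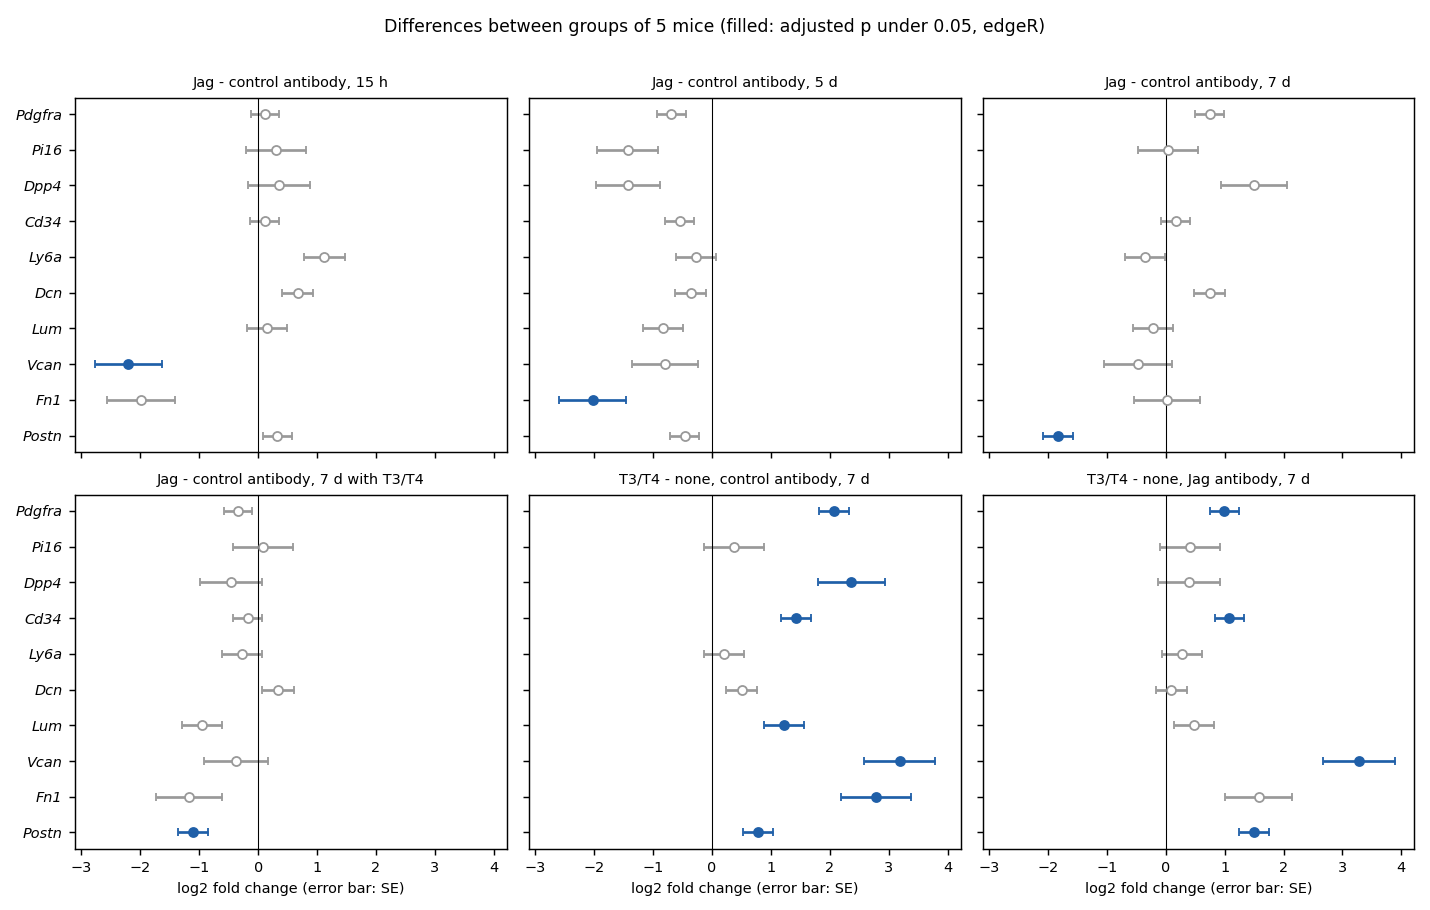
Log2 fold change (horizontal) of each member (vertical) in 6 comparisons of 5 against 5 mice, with error bars of 1 SE. Filled blue points passed an adjusted p of 0.05 in edgeR's quasi-likelihood test: 7 and 4 members in the hormone panels, all higher, and 1 member, always lower, in each antibody panel.

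No member had an interaction of antibody and hormone that passed the test, where 0.00586% of all tested genes (1 gene) were called. By unadjusted p under 0.05 there were 2 members, Pdgfra and Dpp4, and DESeq2 called 0. A hormone rise called under 1 antibody only is therefore not shown to differ between the antibodies. The interaction estimates were -1.96 (SE 0.76) for Dpp4, -1.20 (SE 0.79) for Fn1, -0.73 (SE 0.48) for Lum and 0.72 (SE 0.36) for Postn.

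Other stromal and matrix genes were read from companion lists beside the members. Over all tested genes 43.2% were called with hormone in control mice (20.3% higher), and 9.50% in Jag antibody mice (4.29% higher). In control mice the calls in the early progenitor, preadipocyte and proteoglycan lists below did not exceed that share. With hormone in control mice, 6 of 9 tested general fibroblast markers rose and none fell, among them Col1a1, a fibrillar collagen chain (log2 3.03, adjusted p = 6.27e-06), and Pdgfrb, the beta receptor (1.31, adjusted p = 2.42e-06). In Jag antibody mice 5 of 9 rose, Col3a1 with the smallest adjusted p (2.78, adjusted p = 9.73e-06). Of 10 further early progenitor markers 3 rose and 1 fell in control mice, led by the microfibril gene Fbn1 (2.63, adjusted p = 6.57e-07), while Ackr3, a chemokine scavenger receptor, fell by 1.26. Of the 10, Fbn1 alone rose in Jag antibody mice (2.22, adjusted p = 1.36e-05). Of 10 committed preadipocyte markers 3 and 2 rose and none fell, with Col15a1 at 2.13 in control and 1.67 in Jag antibody mice. Of 11 matrix glycoproteins 7 and 3 rose and none fell, among them Cthrc1, whose adjusted p in control mice was 7.96e-06, and the basement membrane gene Nid1 (1.88 in control and 1.45 in Jag antibody mice). Of 8 tested proteoglycans 2 rose and 1 fell in control mice, and 1 rose and 2 fell in Jag antibody mice: biglycan (Bgn) rose by 1.51 and 1.66, while neurocan (Ncan) fell, at -1.96 and -1.76. Ligands and receptors of the PDGF and TGF-beta families rose in 5 and 2 of 10 cases, and receptors for matrix in 8 and 1 of 10, with none lower. The medians of the lists in control and Jag antibody mice were 1.49 and 1.15 for the fibroblast markers, 1.31 and 0.75 for the glycoproteins and 0.23 and 0.02 for the proteoglycans.

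Markers of other cells moved with hormone too. All 5 monocyte markers rose in control mice and 1 of 5, Ccr2, in Jag antibody mice. Their summed level was 11.2 to 24.2 CPM in control mice without hormone and 65.5 to 161 CPM with it, and 15.9 to 73.2 against 49.5 to 202 CPM in Jag antibody mice. Macrophage markers rose in 5 of 6 cases in control mice (summed level 104 to 236 against 338 to 731 CPM) and 1 of 6 in Jag antibody mice (127 to 548 against 238 to 845 CPM). The 6 proliferation genes rose under both antibodies, from 2.87 to 6.94 to 62.2 to 139 CPM in sum in control mice and from 2.28 to 9.69 to 13 to 70.9 CPM in Jag antibody mice. Of 8 brown adipocyte markers 5 and 2 fell, Adipoq at -1.76 and -1.24. No marker of the monocyte, macrophage or proliferation lists was at 0 in these groups. With a monocyte score as a covariate, an alternative added after seeing the data, the hormone difference of Vcan was 1.19 in control (adjusted p = 0.0353) and 2.13 in Jag antibody mice (adjusted p = 0.000493), Fn1 in control mice was 1.16 (adjusted p = 0.109) and Dpp4 1.45 (adjusted p = 0.0899). Pdgfra and Cd34 remained called under both antibodies in that fit. A macrophage score was not fitted. Over the 40 mice, the deviations of Cd34 from its group means had a Pearson r of 0.62 with those of the macrophage markers. The length slope of the libraries was -0.54 to -0.06 in control mice without hormone and 0.04 to 0.25 with it, and -0.16 to 0.03 and 0.04 to 0.19 in Jag antibody mice. Without the 3 libraries of lowest length slope, an alternative added after seeing the data, all 7 members called in control mice remained called. With length and GC offsets per library, Postn alone of the 7 lost its call, and Ly6a became called (0.98, adjusted p = 0.00842).

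The sequences before the starts of the 4 members that rose with hormone under both antibodies are shown because these genes share that call. RefSeq tables for GRCm38.p6 matched 6 members: Pdgfra, Pi16, Dpp4, Cd34, Vcan and Postn. Each run below is the 250 bases before a transcript start, 5′ to 3′ on the gene's strand, and capitals mark a match to a searched motif. In all, 4 motifs were searched on both strands: TGGGAA, the core bound by the Notch effector RBPJ, AGGTCA, the half-site of thyroid hormone receptors, TGANTCA (AP-1) and GGAATG (TEAD). No motif contains another, but the RBPJ and TEAD motifs can share 4 bases. Postn has 2 annotated starts, the second of which lies at the start used by GENCODE.
Pdgfra, chr5:75152001-75152250, plus strand: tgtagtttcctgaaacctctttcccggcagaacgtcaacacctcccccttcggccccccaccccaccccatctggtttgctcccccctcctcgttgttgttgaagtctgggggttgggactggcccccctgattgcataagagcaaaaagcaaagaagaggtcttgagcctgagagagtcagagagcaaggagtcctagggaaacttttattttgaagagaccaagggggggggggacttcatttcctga
Cd34, chr1:194938571-194938820, plus strand: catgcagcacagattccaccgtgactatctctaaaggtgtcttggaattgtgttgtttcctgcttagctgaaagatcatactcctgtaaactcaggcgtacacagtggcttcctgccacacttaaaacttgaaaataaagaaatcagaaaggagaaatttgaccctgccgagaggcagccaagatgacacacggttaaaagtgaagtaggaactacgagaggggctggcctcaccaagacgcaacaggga
Vcan, chr13:89742513-89742762, minus strand: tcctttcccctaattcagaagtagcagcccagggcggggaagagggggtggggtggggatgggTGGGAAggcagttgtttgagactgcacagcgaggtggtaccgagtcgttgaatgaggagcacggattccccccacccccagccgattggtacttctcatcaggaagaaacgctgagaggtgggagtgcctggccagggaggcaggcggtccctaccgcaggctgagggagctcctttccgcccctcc
Postn first start, chr3:54359017-54359266, plus strand: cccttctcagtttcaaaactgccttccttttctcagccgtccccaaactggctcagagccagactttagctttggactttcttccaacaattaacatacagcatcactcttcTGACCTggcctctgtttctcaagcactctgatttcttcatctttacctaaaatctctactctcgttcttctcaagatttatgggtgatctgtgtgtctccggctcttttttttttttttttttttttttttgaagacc
Postn second start, chr3:54360857-54361106, plus strand: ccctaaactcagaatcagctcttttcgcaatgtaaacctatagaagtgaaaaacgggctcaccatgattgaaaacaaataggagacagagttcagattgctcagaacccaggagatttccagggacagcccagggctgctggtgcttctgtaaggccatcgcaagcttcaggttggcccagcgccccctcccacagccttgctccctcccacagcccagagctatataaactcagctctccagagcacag

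Of these 5 windows 2 held a match. Vcan had the RBPJ core 187 to 182 bases before its start, and the first Postn window had the thyroid hormone receptor half-site, as its reverse complement TGACCT, 138 to 133 bases before. Of all 32851 windows of this length in the table, 21.6% held the RBPJ core, 14.0% the half-site, 6.75% the AP-1 motif and 12.6% the TEAD motif. Dpp4's window (chr2:62412232-62412481, minus strand) held an RBPJ core and a TEAD motif, 183 to 178 and 118 to 113 bases before the start, both as reverse complements, and Pi16's held none. These are matches of letters at frequencies common among genes.

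Postn was the member that separated the antibodies at 7 d. Without hormone, control mice had 144, 128, 191, 111 and 109 CPM and Jag antibody mice had 26.0, 45.3, 29.1, 40.4 and 52.1 CPM. The highest Jag antibody mouse had less than the lowest control mouse, and Postn fell 3.54-fold (log2 -1.82, SE 0.26, adjusted p = 7.18e-05). It was the only one of the 10 members called, where 2.50% of all tested genes were called. With hormone, Postn was again the 1 member called, where 1.14% of genes were: 169, 354, 234, 220 and 195 CPM in control against 78.8, 163, 94.7, 139 and 70.3 CPM in Jag antibody mice. These ranges did not overlap but nearly touched, and the fall was 2.15-fold (log2 -1.10, SE 0.25, adjusted p = 0.0198). The first of the 2 falls held in all 9 alternatives and without any 1 of the 10 mice, while the second held in all 8 alternatives but lost its call without control mouse 2 or Jag antibody mouse 6, 8 or 10. The other members had estimates from -0.47 (Vcan) to 1.50 (Dpp4) without hormone and from -1.17 (Fn1) to 0.34 (Dcn) with it. For Pdgfra and Dcn the estimates without hormone were 0.75 each, with adjusted p 0.0926 and 0.118. The median of the 10 was 0.04 without and -0.36 with hormone, against 0.05 and -0.02 for all tested genes.

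Genes of other lists were called in both directions at 7 d under the Jag antibodies. Col3a1, the chain of type III collagen, fell both without hormone (-1.98, adjusted p = 0.00179) and with it (-1.66, adjusted p = 0.0107), and Sparc, a collagen-binding glycoprotein, fell in the same way (-0.78 and -0.83). Thbs2, a thrombospondin, rose by 2.59 without hormone (adjusted p = 0.0026). Fmo2, a committed preadipocyte marker, rose without hormone (1.27, adjusted p = 0.0373) and with it (1.67, adjusted p = 0.0068). Gsn, a fibroblast marker, and Podn, a proteoglycan, rose without hormone (1.18 and 1.66, adjusted p 0.0195 and 0.0208). Of the 9 general fibroblast markers 1 rose and 1 fell without hormone, and none rose and 3 fell with it. Without hormone, 1 rose and 1 fell among the glycoproteins and among the proteoglycans. With it, none rose and 1 glycoprotein and 2 proteoglycans fell. Of 10 committed preadipocyte markers 1 rose and none fell without hormone, and 1 rose and 1 fell with it. Of 10 early progenitor markers 1 fell without hormone and none was called with it. Over all tested genes 2.50% and 1.14% were called. Rgs5, a gene of pericytes, fell without hormone (-2.37, adjusted p = 2.54e-05) and with it (-2.32, adjusted p = 7.23e-05). The summed level of the 5 pericyte markers was 352 to 806 CPM in control and 158 to 257 CPM in Jag antibody mice without hormone, and 469 to 738 against 143 to 254 CPM with it, with no marker at 0. Of the 5, 3 were called lower without hormone and 1 with it. The part of these cells in the Postn values was not tested. Over the 40 mice, the deviations of Postn from its group means had a Pearson r of 0.38 with those of the pericyte markers and 0.38 with those of the endothelial markers, values that share library and depth.

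At 5 d the Jag antibodies had 1 member called, where 8.02% of genes were. Fn1 was 136, 19.2, 176, 74.8 and 121 CPM in control and 27.9, 22.8, 30.3, 19.5 and 28.6 CPM in Jag antibody mice. In control mice 1, 3, 4 and 5 it was far above all Jag antibody mice, and control mouse 2 was below them, so the ranges overlapped (log2 -2.02, SE 0.58, adjusted p = 0.0276). All 10 members had a negative estimate, from -0.27 (Ly6a) to -2.02, with a median of -0.74 against 0.04 for all tested genes. Next in size were Pi16 at -1.43 (adjusted p = 0.0795) and Dpp4 at -1.42 (adjusted p = 0.0981). Pi16 was 67.3 and 66.8 CPM in control mice 3 and 5 and 9.47 to 23.4 CPM in the other 8 mice of this time. Of the companion lists of stroma and matrix, 4 had 4 or more lower calls and none higher. In these, 6 of 9 fibroblast markers, 5 of 10 early progenitor markers, 7 of 11 glycoproteins and 4 of 8 proteoglycans fell. Col1a1 was at -1.99 (adjusted p = 0.00542) and Fbn1 at -1.63 (adjusted p = 0.00248). The other 3 of these lists had few calls. Of 10 committed preadipocyte markers 2 fell and 1, Fmo2, rose (1.09, adjusted p = 0.0401). Of the 10 PDGF and TGF-beta family genes 1 fell, Tgfb3 (-2.21, adjusted p = 0.0061), and of 10 receptors for matrix 1 rose, Sdc4 (1.42, adjusted p = 0.0125). Of 8 muscle markers 6 were called lower in the same comparison. The pericyte gene Rgs5 was also lower (-1.41, adjusted p = 0.00598), and the other pericyte markers were not called. Pericyte markers summed to 276 to 692 CPM in control and 166 to 261 CPM in Jag antibody mice at 5 d, without overlap. With the muscle score as a covariate Fn1 was at -1.36 (adjusted p = 0.456), and with the monocyte score at -1.41 (adjusted p = 0.0603). Its call was also lost without control mouse 3 or 5 or Jag antibody mouse 6, 9 or 10, with values of -2.34 to -1.76 when 1 mouse was left out.

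At 15 h the 1 member called was Vcan, where 1.14% of genes were. It was 10.5, 266, 123, 10.3 and 24.5 CPM in control and 17.1, 8.15, 30.4, 13 and 25.7 CPM in Jag antibody mice. Control mice 2 and 3 alone were high, and the other 3 lay within the range of the Jag antibody mice (log2 -2.20, SE 0.57, adjusted p = 0.0481). Fn1 had the same 2 high mice, at 431 and 172 CPM against 20.0 to 67.1 CPM in the other control mice and 16.0 to 57.8 CPM in Jag antibody mice (log2 -1.99, adjusted p = 0.0724). These are the 2 libraries with the high monocyte sums, and their neutrophil markers summed to 2528 and 212 CPM against 4.38 to 24.8 CPM in the other control mice and 13.9 to 164 CPM in Jag antibody mice. Without them, an alternative added after seeing the data, Vcan was at 0.32 (adjusted p = 1.00) and no member was called. Fits without any 1 mouse put Vcan between -2.44 and -1.12, the last without control mouse 2, and its call was lost without control mouse 2 or 3 or any of the Jag antibody mice. Ly6a went the other way, with 162, 236, 456, 109 and 539 CPM in Jag antibody mice and 87.3 to 224 CPM in control mice (log2 1.12, SE 0.34, adjusted p = 0.0904). The median of the members was 0.23 against -0.04 for all tested genes.

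**Figure D3:**
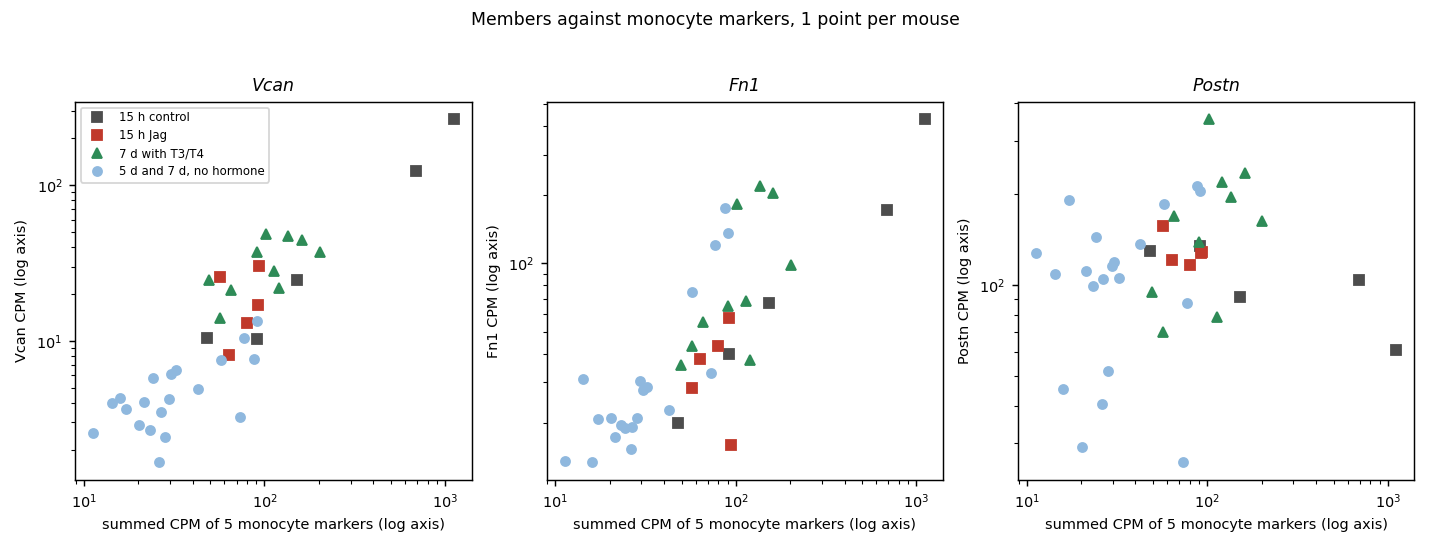
CPM of Vcan, Fn1 and Postn (vertical, log axis) against the summed CPM of 5 monocyte markers (Ly6c2, Ccr2, Chil3, Plac8 and F13a1; horizontal, log axis) in each of the 40 mice. The 2 black squares at the far right are control mice 2 and 3 at 15 h, at 689 and 1115 CPM of markers, where Vcan is 123 and 266 CPM; Postn shows no such rise.

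The plot against monocyte markers also shows the relation within groups. Deviations of log2 CPM from the group means were compared with those of the monocyte markers over 40 mice. Pearson r was 0.79 for Vcan, 0.65 for Ly6a and 0.59 for Fn1, and 0.67, 0.65 and 0.44 without the 2 mice farthest out. Over all 40 mice it was -0.21 for Postn, -0.19 for Dcn and 0.00 for Lum. With the macrophage markers r was 0.62 for Cd34, 0.57 for Fn1, 0.18 for Dcn and -0.07 for Postn. Without the 2 mice farthest out it was 0.71 for Cd34 and 0.49 for Fn1. With the neutrophil markers r was 0.76 for Vcan and -0.41 for Dcn, and 0.57 and -0.36 without the 2 mice farthest out. With the brown adipocyte markers it was -0.73 for Vcan, -0.64 for Fn1, -0.50 for Pdgfra, 0.01 for Dcn and 0.19 for Postn. Without the 2 mice farthest out these were -0.57, -0.46, -0.48, -0.16 and -0.01. With the muscle markers the values were 0.58 for Pi16, 0.55 for Cd34, 0.51 for Dcn and 0.48 for Dpp4, and -0.05 for Vcan. With the length slope r was 0.65 for Pdgfra and -0.45 for Ly6a, and 0.63 and -0.30 without the 2 mice farthest out. All of these are descriptions, since both measures come from the same library.

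The difference between the antibody effects at 7 d and at 5 d was tested directly. Of the 10 members 3 were called, where 1.29% of genes were: Pdgfra at 1.43 (SE 0.35, adjusted p = 0.0379), Dpp4 at 2.92 (SE 0.78, adjusted p = 0.0484) and Postn at -1.36 (SE 0.36, adjusted p = 0.0471). Pdgfra and Dpp4 had lower estimates in Jag antibody mice at 5 d (-0.69 and -1.42) and higher ones at 7 d (0.75 and 1.50), while Postn moved from -0.46 to -1.82. No member was called with the muscle score or the monocyte score as a covariate, with only the groups compared in the fit, or with limma on FPKM. Without Jag antibody mouse 6 at 7 d, whose Dpp4 was 11.6 CPM against 1.10 to 2.32 CPM in the other 4, Dpp4 was at 1.83 (adjusted p = 0.337). This library stood apart in its markers too, with a summed level of 51059 CPM for skeletal muscle against 13.9 to 736 CPM in the other 4, 548 against 127 to 173 CPM for macrophages and 73.2 against 15.9 to 28.3 CPM for monocytes. Of the 20 fits that leave out 1 mouse, 7 lost the call of Pdgfra, 13 that of Dpp4 and 14 that of Postn.

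The times were compared within each antibody. In control mice, 4 of 10 members were called between 15 h and 5 d, where 36.4% of genes were: Pi16 rose by 1.38 (adjusted p = 0.0347), Dcn by 0.75 (adjusted p = 0.0268) and Lum by 0.98 (adjusted p = 0.0234), and Vcan fell by 3.36 (adjusted p = 0.000238). Without control mice 2 and 3 at 15 h no member was called and Vcan was at -0.83 (adjusted p = 0.154). The calls of Dcn and Lum were also lost without mouse 2 or 3 at 15 h or mouse 3 at 5 d, and that of Pi16 without mouse 1 or 3 at 15 h or mouse 3 or 5 at 5 d. The call of Pi16 was lost in 9 of 12 alternatives, among them no count filter (adjusted p = 0.0528), length and GC offsets (adjusted p = 0.0692), the replicate block (1.09, adjusted p = 0.0615) and the muscle score, with which it was at 0.44 (adjusted p = 0.517). All 5 neutrophil markers and 4 of 5 monocyte markers fell in this comparison. From 5 d to 7 d, 7 of 10 fell and none rose, where 9.13% of genes were called and 4.42% were called lower. Lum went from 98.7, 67.8, 121, 87.6 and 88.5 CPM to 49.4, 17.4, 34.9, 22.9 and 25.8 CPM, with no overlap (log2 -1.62, SE 0.35, adjusted p = 0.00504). The ranges of the other called members overlapped, and the share of all tested genes without overlap is not given here. The call of Lum held in all 11 alternatives and without any 1 of the 10 mice. Pdgfra fell by 1.31 (SE 0.25, adjusted p = 0.00207), from 22.0 to 63.1 CPM at 5 d to 9.75 to 23.6 CPM at 7 d. The other falls were Cd34 at -1.24 (adjusted p = 0.00334), Dcn at -0.95 (adjusted p = 0.0231), Pi16 at -1.75 (adjusted p = 0.0319), Dpp4 at -2.09 (adjusted p = 0.0189) and Fn1 at -2.37 (adjusted p = 0.0115). Ly6a, Vcan and Postn did not pass, with -0.17, -1.08 and -0.22. Without control mouse 3 at 5 d the calls of Pi16, Dpp4 and Dcn were lost; Pi16 lost its call in 5 further such fits and Dcn in 1. The members' median was -1.28 against 0.01 for all tested genes. In the fibroblast list 7 of 9 fell, and 8 of 11 glycoproteins did, with Cthrc1 at -2.94. The muscle markers had a median sum of 19.7 CPM and a highest of 22997 CPM in control mice at 7 d, against a median of 23219 CPM at 5 d, and with the muscle score as a covariate 3 members were called; Pi16 was then at -0.94 (adjusted p = 0.255). Macrophage markers fell in 4 of 6 cases in the same comparison (summed level 295 to 654 CPM at 5 d and 104 to 236 CPM at 7 d), as did 2 of 5 monocyte markers (26.6 to 90.9 and 11.2 to 24.2 CPM) and 2 of 6 proliferation genes. Brown adipocyte markers went the other way, with summed levels of 7550 to 21763 CPM at 5 d and 15463 to 42791 CPM at 7 d. Among them Ucp1 (1.75, adjusted p = 0.0091) and Elovl3 (3.15, adjusted p = 0.0213) were called higher. The part of this shift in the members' values was not tested. With the monocyte score as a covariate 4 members were called, and Pi16 (-1.62, adjusted p = 0.0927), Dpp4 (-1.59, adjusted p = 0.0852) and Fn1 (-1.44, adjusted p = 0.0689) were not.

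In Jag antibody mice fewer members were called over time, a difference that was tested only for 5 d against 7 d, as given above. From 15 h to 5 d 3 of 10 fell, where 14.5% of genes were called. Dpp4 went from 13.5, 6.72, 4.72, 5.98 and 7.75 CPM to 1.28, 2.67, 2.86, 1.74 and 2.00 CPM, with no overlap (log2 -1.87, SE 0.55, adjusted p = 0.0213). Ly6a fell by 1.52 (adjusted p = 0.00441) with overlap, and Vcan fell by 1.94 (adjusted p = 0.0229) from 8.15 to 30.4 CPM to 2.67 to 6.53 CPM. The calls of Dpp4 and Vcan were lost in 3 and 4 of the 10 fits that leave out 1 mouse, with values of -1.99 to -1.57 for Dpp4 and -2.12 to -1.69 for Vcan. Blood cell markers fell in the same comparison: 4 of 5 for neutrophils, with a summed level of 13.9 to 164 CPM at 15 h and 2.21 to 6.90 CPM at 5 d, and 2 of 5 for monocytes, at a median sum of 79.7 and 30.5 CPM. With the monocyte score as a covariate Dpp4 was at -1.35 (adjusted p = 0.0951) and Vcan at -0.58 (adjusted p = 0.304), and Ly6a remained called. Vcan also lost its call with length and GC offsets (-1.51, adjusted p = 0.0781), without a count filter (-1.89, adjusted p = 0.0529) and with limma on log2(FPKM + 1). From 5 d to 7 d Postn alone was called, where 3.29% of genes were. It went from 119, 137, 116, 99.3 and 106 CPM to 26.0, 45.3, 29.1, 40.4 and 52.1 CPM, with no overlap (log2 -1.58, SE 0.26, adjusted p = 0.000873), and this call held in all 10 alternatives and without any 1 of the 10 mice. At 15 h and 5 d Postn had no called antibody difference (0.33 and -0.46, adjusted p 0.746 and 0.27).

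**Figure D4:**
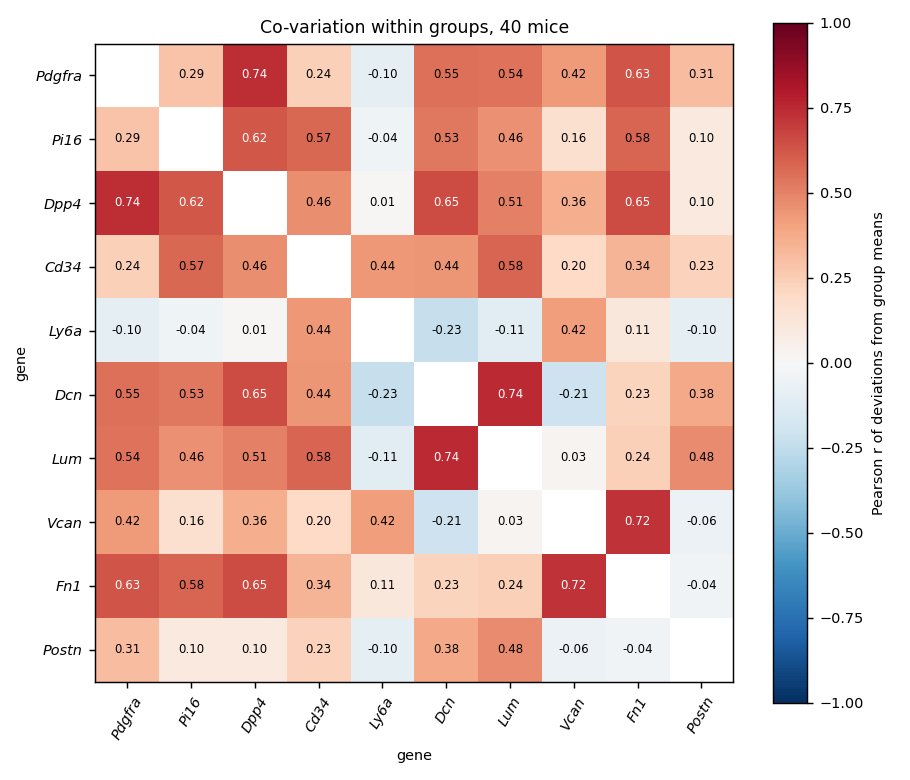
Pearson r between members (both axes) of the deviations of log2 CPM from the group means, over 40 mice. Dcn with Lum and Pdgfra with Dpp4 reach 0.74 and Vcan with Fn1 0.72, while the row of Ly6a runs from -0.23 to 0.44 and that of Postn from -0.10 to 0.48.

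Within groups the members fell into looser and tighter company, as the map of co-variation shows. Of 45 pairs, 14 had an r above 0.5 and 8 were below 0, with a median of 0.36 over 40 mice. The neighbours Dcn and Lum were at 0.74, as were Pdgfra and Dpp4, and Vcan and Fn1 were at 0.72. Leaving out the 2 mice farthest from the median gave 0.71, 0.64 and 0.62 for these pairs. Ly6a and Postn were the least like the rest, with no r above 0.44 and 0.48. Among 12130 genes with a mean log2 CPM of at least 1, those most like the mean standardised deviation of the members were Fstl1, a secreted follistatin-like glycoprotein (r = 0.90), C1s1, a complement protease (0.89), and Kdelc2 (0.87), over the same 40 mice. These values share library, depth and length slope.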

How the data were processed

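Total RNA from brown adipose tissue of 40 mice was read as single-end 50 bp reads, per the labels' protocols. The submitters' processing notes name GSNAP and limma, with no version. The genome build, the counting program and the use of strand are not given in the sources used here. The authors deposited raw counts per Ensembl gene for 52636 genes, which were used as they are, and an FPKM table. The authors' FPKM values equal the count divided by a median-of-ratios factor and a length, which is the genomic span for 86.5% of 14239 genes (within 0.02 on the log2 scale), so they were used only in an alternative, as log2(FPKM + 1) with limma 3.58.1.

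Groups came from the labels. Symbols matched 52403 genes, and positions and lengths came from GENCODE M21. The main test was edgeR 4.0.16 (R 4.3.3): filterByExpr kept 17079 genes, libraries were TMM-scaled, and 1 robust quasi-likelihood model with a mean per group was fitted over all 40 mice for 12 comparisons, with Benjamini-Hochberg adjustment over all tested genes. CPM values are TMM-scaled, and log2 CPM has a prior count of 2. No 2 mice of a group had counts within sampling noise of each other (lowest chi-square per degree of freedom 19.4). The fit was also run on simulated counts with known changes. These held no muscle, blood cell or length slope differences between libraries, so the simulation cannot speak to such differences. All 10 members are named in every group. Of 19 companion lists, counts and medians are given with at most 2 called genes per list, comparison and direction, those of smallest adjusted p. The result of 1 list is not reported here. Members and lists were chosen with earlier results of these data known. Alternatives were DESeq2 1.42.0, RLE factors, no count filter, only the groups compared, a muscle score (8 genes) as a covariate, limma, length and GC offsets, a replicate block, and leaving out each mouse. Alternatives chosen after seeing the data were a monocyte score (5 genes) as a covariate, leaving out control mice 2 and 3 at 15 h, and leaving out the 3 libraries of lowest length slope.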

Additional observations from a re-analysis of the deposited data

Results flagged for a closer look

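In 80 sets of 5 mice (10 members in 8 groups), 2 held a mouse far from the others by Dixon's ratio, where chance flags about 1 in 20. Dpp4 was low in control mouse 2 at 5 d, at a log2 CPM of 0.35 against 2.24 in the nearest mouse (1.17 against 4.62 CPM). Ly6a was high in control mouse 4 at 7 d, at a log2 CPM of 7.62 against 6.67 in the nearest (197 against 102 CPM), and this is the library with the fewest counts and the lowest length slope. The antibody effects at 7 d and 5 d differed by the test of the difference itself for Pdgfra (1.43), Dpp4 (2.92) and Postn (-1.36), each with an adjusted p just under the threshold.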

How the results depend on the processing

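Of 33 calls of members over the 12 comparisons, 11 were lost in no alternative and 10 in no fit at all, leave-one-out fits included. Of 1210 member values under alternatives, 59 had another sign than the reported one. Among called or newly called results 2 reversed: Vcan at 15 h was at 0.32 without control mice 2 and 3, and Ly6a with hormone in control mice was at -0.80 with the monocyte score (adjusted p = 0.0571, against 0.20 as reported). For the antibody at 15 h, 1 member was called; DESeq2 called 3, and 0 were called with RLE factors, no count filter, only the groups compared, limma on FPKM, or without control mice 2 and 3. At 5 d, 1 was called; DESeq2 called 4, RLE factors 2, length and GC offsets 3, the fit without the 3 libraries of lowest length slope 2, and 0 were called with no count filter, the muscle score, limma or the monocyte score. For 7 d against 5 d, 3 were called, against 1 with no count filter and 0 with only the groups compared, the muscle score, limma or the monocyte score. In control mice from 15 h to 5 d, 4 were called, against 1 with either score and 0 with only the groups compared or without control mice 2 and 3. From 5 d to 7 d, 7 were called, against 2 with only the groups compared, 3 with the muscle score and 4 with the monocyte score. In Jag antibody mice from 15 h to 5 d, 3 were called, against 1 with the monocyte score and 1 with the replicate block and offsets together; from 5 d to 7 d, 1 was called, against 2 with DESeq2 and 2 with the muscle score. Leaving out each mouse gave 0 to 3 calls for the antibody at 15 h, 0 to 5 at 5 d, 1 to 2 at 7 d and 0 to 1 with hormone, 6 to 8 for hormone in control and 4 to 5 in Jag antibody mice, 0 to 4 for 7 d against 5 d, and over time 1 to 6 and 4 to 7 in control and 1 to 4 in Jag antibody mice. Some of these settings entered fewer mice into the fit, and why the numbers of calls differed between settings was not tested. The title numbers were not shown to pair the mice. Deviations of same-numbered mice had mean correlations of 0.08 to 0.19, and single values ran from -0.36 to 0.67. No pair of groups had all 5 above 0.1. With the replicate block alone, 7 and 4 members were called for hormone in control and Jag antibody mice, 0 for the interaction, 2 for 7 d against 5 d, and 4, 7, 3 and 1 over time; Dpp4 for 7 d against 5 d and Pi16 in control mice from 15 h to 5 d (adjusted p = 0.0615) lost their calls. Dpp4 had the lowest level per length of the members, at 0.253 to 13.5 CPM. On log2(FPKM + 1) its hormone difference in control mice was 0.09 and still called, while Vcan's, at 0.43 and 0.35 under the 2 antibodies, was not.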

Other observations

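Other cell types in the same tissue gave these counts. Over all tested genes, 43.2% were called with hormone in control mice and 9.50% in Jag antibody mice. Of 8 endothelial markers 4 rose and 2 fell with hormone in control mice, Cdh5 (VE-cadherin) at 1.48 and Emcn (endomucin) at -1.08, and 1 rose in Jag antibody mice. Emcn also fell by 0.89 at 7 d under the Jag antibodies without hormone (adjusted p = 0.00829). Of 4 smooth muscle markers 3 fell with hormone in control and 2 in Jag antibody mice, Tagln at -2.77 and -1.80. Of 3 tested mesothelial markers 1, Msln, fell in Jag antibody mice from 15 h to 5 d, where 14.5% of all tested genes were called. In 48 tests of the 4 Schwann cell markers over the 12 comparisons edgeR called 0, with 3 at an unadjusted p under 0.05, and DESeq2 called 2.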
